A study of Homo sapiens with 48 samples.

Results

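Androgen depletion was examined in parental 22Rv1 cells, called Rv1-WT, that received vehicle only. The comparison took 6 of the 48 RNA-Seq libraries of the series. Rv1-WT cells kept in charcoal-stripped serum (CSS, 3 libraries) were set against Rv1-WT cells kept in complete fetal bovine serum (FBS, 3 libraries), and every gene with enough counts was tested. 22Rv1 is an established line of human castration-resistant prostate cancer that makes the full-length androgen receptor and shortened forms without the ligand-binding part. All 6 cultures were treated with 0.1% DMSO for 72 hours, and none of these cells carried an engineered change. Total RNA was sequenced with a strand-specific kit, and the study describes its replicates as biological. The wider study also cultured Rv1-Luc, parental cells transduced with a lentivirus that expresses firefly luciferase, lines that re-express CDK8 or CDK19, or mutants of them, after knockout of both genes, and cultures given 500 nM SNX631, an inhibitor of the Mediator kinases CDK8 and CDK19.

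Charcoal treatment strips serum of androgens, and also of other steroids, thyroid hormone, retinoids and further small lipophilic molecules. The androgen receptor is a hormone-activated transcription factor that in prostate cells switches on kallikreins, TMPRSS2 and FKBP5, and lowers a smaller number of genes. Cells also read their supply of sterols and amino acids through separate transcription factors, SREBP for sterols and ATF4 for amino acids and protein stress. In these cultures the medium was not the only difference between the groups. CSS cells had been passaged in CSS for 3 to 4 days beforehand and were seeded at 300000 cells per well against 200000 for FBS, so serum type, length of exposure and seeding density cannot be told apart. A lower level could come from fewer cells that express a gene or from less RNA in each cell, and bulk libraries do not separate these.

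CSS changed 2174 of 20009 genes tested, 1218 higher and 956 lower. A gene was called when its Benjamini-Hochberg adjusted p in edgeR's quasi-likelihood test was under 0.01 and its change was over 1.5-fold. The share called was 10.9% of genes tested, 6.09% higher and 4.78% lower. These shares are the background against which the counts of every gene list below are to be read. Of these genes, 460 rose and 261 fell by more than 2-fold, and 80 rose and 32 fell by more than 4-fold. The 3 FBS and 3 CSS values did not overlap for 51.9% of all genes tested, so separation of the groups alone was common. The 6 libraries held 14.6 to 18.2 M counts. Scaling by library size alone, without TMM factors, gave 1496 higher and 746 lower calls, a different split from 1218 and 956. Prostate luminal markers were present in all 6 libraries, with a summed level of 3238 to 3258 CPM (counts scaled per M library counts) in FBS and 3068 to 3147 CPM in CSS over 12 genes. Of these 12 genes, 4 were called lower in CSS and none higher, so the sum does not show each marker to be steady. Of 17 markers of blood, stromal and endothelial cells, 5 were under the filter on low counts. The other 12 summed to 16.5 to 18.3 CPM in FBS and 16.4 to 22.0 CPM in CSS, and IGKC, PECAM1, IGHG1 and IGLC2 were at 0 in all 6 libraries. None of the 12 was called by edgeR, 2 had an unadjusted p under 0.05, and DESeq2 and limma-voom called 0 and 0.

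**Figure D1:**
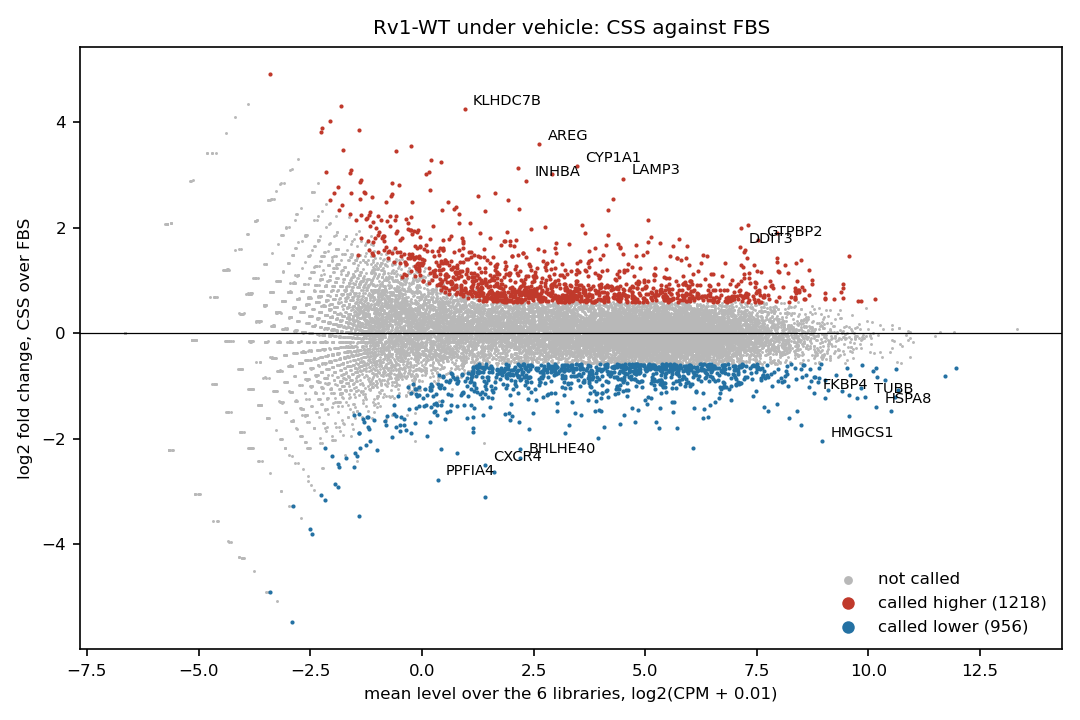
Each point is a gene of the Rv1-WT vehicle comparison, with its mean level over the 6 libraries on the x axis (log2 of CPM + 0.01) and the log2 fold change of CSS over FBS on the y axis; red points were called higher (1218) and blue points called lower (956), and grey points were not called. Calls of both directions occur at low and at high levels, and HSPA8, TUBB and HMGCS1 are abundant genes that fell.

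The largest rises among genes with a mean of at least 1 CPM were KLHDC7B, AREG, DLGAP1-AS1, CYP1A1 and PLEKHH2. AREG encodes amphiregulin, a ligand of the EGF receptor, and measured 1.23, 1.07 and 0.519 CPM in FBS and 13, 10.5 and 10.7 CPM in CSS. Its log2 fold change was 3.58 ± 0.24 (SE, edgeR adjusted p = 4.32e-19). CYP1A1, the xenobiotic-metabolizing enzyme that is the classic target of the aryl hydrocarbon receptor, measured 2.06, 2.01 and 2.60 CPM in FBS and 20.5, 18.3 and 21 CPM in CSS. Every CSS library lay far above every FBS library for both genes, and CYP1A1 rose by 3.17 ± 0.28 (SE, edgeR adjusted p = 1.39e-11) on the log2 scale. KLHDC7B was barely detected in FBS (0.353, 0 and 0.195 CPM) and reached 5.28, 2.11 and 3.68 CPM in CSS, a log2 fold change of 4.25 ± 0.48 (SE, edgeR adjusted p = 4.41e-11). INHBA, a subunit of activin, rose by 7.40-fold, and LAMP3, a lysosomal membrane protein, by 7.61-fold. The remaining members of this group, LINC00365, FIBIN, CCDC178, APOL6 and CMKLR2, had log2 fold changes of 3.01, 3.01, 2.71, 2.65 and 2.60. DLGAP1-AS1 is an antisense gene, and whether the counting used strand is not given in the sources used here.

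Large falls were found in receptor genes and hypoxia-responsive genes. CXCR4, a chemokine receptor, measured 4.23, 4.62 and 4.67 CPM in FBS and 0.834, 0.496 and 0.985 CPM in CSS, a log2 fold change of -2.51 ± 0.24 (SE, edgeR adjusted p = 3.38e-13). CCKBR, the gastrin receptor, fell by 4.57-fold. PPFIA4, MIR210HG, BHLHE40 and PFKFB4, known as hypoxia-responsive genes, had log2 fold changes of -2.78, -2.63, -2.36 and -1.99. PPFIA4 lost its call without any one of FBS replicate 3, CSS replicate 2 or CSS replicate 3, with values from -2.68 to -2.32, and in limma-voom. COLCA1 fell from 108, 112 and 109 CPM to 24, 24.6 and 23.8 CPM, and TNS4, TMEM169 and PLIN4 had log2 fold changes of -2.26, -2.21 and -1.95. HMGCS1, the HMG-CoA synthase of the mevalonate pathway, was the most abundant of the 12 genes with the largest falls. The lowest p-values belonged to HSPA8, GTPBP2, TUBB, DDIT3, TOX3 and FKBP4, all with changes between 2-fold and 4-fold.

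Androgen-induced genes fell or did not pass the limits, and none rose. Of 28 tested, 7 were called lower, a share of 25% against 4.78% of all genes, and the median log2 fold change was -0.36 against 0.01 for all genes tested. The canonical markers moved by different amounts. KLK3, which encodes prostate-specific antigen, was low in both media at 10.5, 11.6 and 9.93 CPM in FBS and 8.62, 8.30 and 8.60 CPM in CSS. The FBS and CSS values did not overlap, but the change of -0.32 ± 0.13 (SE, edgeR adjusted p = 0.0448) did not pass. KLK2, a related kallikrein, had -0.55 ± 0.17 (SE, edgeR adjusted p = 0.00746), which passed the p-value limit and missed the fold limit. TMPRSS2, a membrane protease, fell from 17.8, 16.9 and 17.5 CPM to 9.23, 10.2 and 12.1 CPM (log2 fold change -0.72 ± 0.09 SE, edgeR adjusted p = 2.64e-10). FKBP5, an HSP90 co-chaperone, fell from 626, 593 and 608 CPM to 339.7, 331 and 347 CPM (log2 fold change -0.84 ± 0.04 SE, edgeR adjusted p = 7.43e-24). SLC45A3, also called prostein, had the largest fall of the list at 38.3, 38 and 38.6 CPM in FBS and 13.5, 14.4 and 14.7 CPM in CSS. PMEPA1 and NDRG1, 2 further targets, fell by 1.57-fold and 2.59-fold. EAF2, an elongation factor partner, lost its call without any single library other than FBS replicate 3, with log2 fold changes from -0.78 to -0.45. EAF2 was also not called in DESeq2 (-0.73), in limma-voom (-0.68), under library-size scaling (-0.67) or with the Rv1-WT libraries alone (-0.73).

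The receptor itself measured 531, 544 and 505 CPM in FBS and 521, 509.9 and 469.6 CPM in CSS, ranges that overlapped, with -0.07 ± 0.05 (SE, edgeR adjusted p = 0.205). Among 9 androgen-repressed genes tested, 3 were called higher and 1 lower, against 6.09% and 4.78% of all genes. All 4 were glucuronosyltransferases of the UGT2B family, in which UGT2B15 and UGT2B17 inactivate androgens. UGT2B15 rose from 48.6, 50.1 and 49.8 CPM to 85.4, 85.3 and 90.9 CPM, UGT2B10 and UGT2B17 had log2 fold changes of 0.94 and 1.43, and UGT2B11 fell with -0.60, a call lost without FBS replicate 3 or CSS replicate 1 (log2 fold changes of -0.54 and -0.53). UGT2B11 was also not called under library-size scaling (-0.54) or with a filter of at least 1 CPM in 3 libraries (-0.58). The UGT2B genes are closely related copies, so the split of reads among them is uncertain. FOLH1, which encodes prostate-specific membrane antigen, had 0.18 ± 0.05 (SE, edgeR adjusted p = 0.00224) and missed the fold limit. Prostate surface proteins outside the androgen list also differed: STEAP1 fell from 55.9, 60.1 and 56.7 CPM to 16.5, 18.6 and 18.4 CPM, and STEAP2 from 140.1, 143 and 140.2 CPM to 64.8, 72.6 and 64.6 CPM.

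Other hormone pathways that charcoal-stripped serum could affect gave mixed counts. Of 11 glucocorticoid-induced genes, 3 rose (TSC22D3, DUSP1 and ERRFI1) and 3 fell (KLF9, FKBP5 and ZBTB16), against 6.09% and 4.78% of all genes. The calls of ERRFI1 and ZBTB16 did not survive leaving out some single libraries, with log2 fold changes from 0.55 to 0.58 and from -0.57 to -0.53. These were FBS replicates 2 and 3 and CSS replicate 1 for ERRFI1, and FBS replicate 1 and CSS replicate 2 for ZBTB16. ZBTB16 was also not called under library-size scaling (-0.53) or with a filter of at least 1 CPM in 3 libraries (-0.57). Its call was lost too with counts thinned to the smallest library (-0.58) and with only the libraries of the comparison (-0.58). TSC22D3, also called GILZ, measured 130.1, 103 and 122 CPM in FBS and 198, 191 and 205 CPM in CSS, while KLF9 fell from 46.2, 44.3 and 43.7 CPM to 20.2, 19.6 and 16.4 CPM. The gene for the glucocorticoid receptor, NR3C1, rose by 1.89-fold (log2 fold change 0.92 ± 0.06 SE, edgeR adjusted p = 6.73e-19). ESR1, estrogen receptor alpha, was near the limit of detection at 1.23, 1.27 and 1.49 CPM in FBS and 0.222, 0.31 and 0.518 CPM in CSS. Its log2 fold change was -1.89 ± 0.46 (SE, edgeR adjusted p = 6.50e-04). ESR1 was not called in DESeq2, which gave it no adjusted p. No member of the retinoid list was called by edgeR among 9 tested, 2 had an unadjusted p under 0.05, and DESeq2 and limma-voom called 0 and 0. In the aryl hydrocarbon receptor list, CYP1A1 and the receptor gene AHR were called higher, 2 of 9 tested, against 6.09% of all genes. AHR rose from 22.9, 21.7 and 23.8 CPM to 43.9, 40.5 and 39.3 CPM. CYP1B1 and the repressor AHRR, also known targets, had log2 fold changes of 0.39 and 0.01 and did not pass.

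Genes of cholesterol synthesis fell almost as a whole. Of 20 enzymes tested, 17 were called lower and none higher, against 4.78% called lower in all genes, with a median log2 fold change of -1.03. HMGCS1 measured 793, 853 and 776 CPM in FBS and 185, 199.9 and 199 CPM in CSS. Every CSS value lay far under the lowest FBS value, and the log2 fold change was -2.05 ± 0.14 (SE, edgeR adjusted p = 3.68e-14). MSMO1, MVD and LSS, which act later in the pathway, fell by 3.06-fold, 3.0-fold and 2.79-fold. CYP51A1, TM7SF2 and PMVK did not pass, with log2 fold changes from -0.50 to 0.06.

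Genes that sense or take up sterols moved with them. Of 11 tested, 5 were called lower and none higher, against 4.78% called lower in all genes, with a median of -0.43. INSIG1, the endoplasmic reticulum protein that holds back SREBP when sterols are plentiful, fell from 550.1, 557 and 548 CPM to 159, 168 and 169 CPM (log2 fold change -1.74 ± 0.11 SE, edgeR adjusted p = 3.05e-15). STARD4 and NPC2, which move cholesterol between membranes and out of lysosomes, fell by 1.80-fold and 1.77-fold. ABCA1, an exporter of cholesterol induced by the sterol receptor LXR, was low and rose from 0.47, 0.669 and 0.389 CPM to 2.06, 1.43 and 1.76 CPM. The LXR list as a whole had 2 higher and 2 lower calls among 9. The lower ones, LPCAT3 and SREBF1, were not called under library-size scaling (log2 fold changes of -0.57 and -0.54), and SREBF1 was not called without CSS replicate 1 (-0.56). For ABCG1, the other exporter that rose, the call was lost when any library but FBS replicate 2 was left out (log2 fold changes from 0.52 to 0.84), in DESeq2 (0.73) and in a fit with the replicate number as a block (0.72). In fatty acid synthesis, 8 of 16 genes were called lower and none higher, against 4.78% called lower in all genes, with a median of -0.58. FASN, fatty acid synthase, measured 1829, 1712 and 1583 CPM in FBS and 921, 960.1 and 873 CPM in CSS, and ACSS2, which makes acetyl-CoA from acetate, fell by 3.06-fold. ELOVL6, a fatty acid elongase, fell by 2.19-fold.

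The ATF4 pathway moved the opposite way. ATF4 is translated when amino acids run short or the endoplasmic reticulum is stressed, and it raises genes for stress regulators, amino acid synthesis and amino acid uptake. Of 14 pathway regulators, 12 were called higher and none lower, against 6.09% called higher in all genes, and the median log2 fold change was 1.23. DDIT3, the CHOP transcription factor, measured 68.4, 67.8 and 68.8 CPM in FBS and 216, 204 and 213 CPM in CSS. The replicates of each medium differed by little beside the gap between media, and DDIT3 rose by 1.63 ± 0.05 (SE, edgeR adjusted p = 5.77e-34) on the log2 scale. Part of its reads was split with other features, since fractional counts occurred in 66.7% of its 6 values. GDF15, a secreted stress cytokine, measured 62.6, 58 and 62.9 CPM in FBS and 287, 227 and 248 CPM in CSS. CHAC1, which degrades glutathione, SESN2, a restraint on mTORC1, and ATF3 rose by 3.14-fold, 2.89-fold and 2.44-fold. TRIB3, a pseudokinase that feeds back on ATF4, rose less, from 307, 299 and 323 CPM to 489, 501 and 534 CPM. The ATF4 transcript itself had 0.13 ± 0.05 (SE, edgeR adjusted p = 0.0449) and did not pass.

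Amino acid genes followed in part. Among 11 transporters, 7 were called higher and 1 lower, against 6.09% and 4.78% of all genes, with a median of 0.64. SLC7A11, the cystine importer, rose from 192, 173 and 186 CPM to 439, 407 and 367 CPM, and its partner chain SLC3A2 from 294, 271 and 288 CPM to 554, 552 and 597 CPM. SLC7A8 was the transporter that fell, from 14.6, 14.3 and 14.1 CPM to 8.78, 9.67 and 9.17 CPM, and it was not called under library-size scaling (log2 fold change -0.58). Among 14 amino acid synthesis genes, 6 rose and none fell. ASNS, asparagine synthetase, measured 251, 248 and 256 CPM in FBS and 438, 443 and 451 CPM in CSS. MTHFD2 and PSAT1, of mitochondrial folate and serine metabolism, rose by 1.80-fold and 1.58-fold, while PHGDH missed the fold limit at 0.44. Of 20 cytosolic tRNA synthetases, 5 rose, against 6.09% of all genes, and none fell. AARS1 and WARS1, for alanine and tryptophan, rose by 1.91-fold and 1.98-fold, and SARS1, YARS1 and GARS1 by 1.72-fold, 1.69-fold and 1.58-fold.

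The element known for ATF4 is a joint C/EBP-ATF site, searched as TGATGNAAT on both strands. It was found in the 250 bases before the start of 1.46% of 820 genes called higher, 0.293% of 682 called lower and 0.448% of 12715 tested genes that had a RefSeq promoter (build GRCh38.p14). BCAT1, which transaminates branched-chain amino acids, FGF21, a stress hormone, and KLHDC7B carried it and rose, by 1.09, 2.22 and 4.25 on the log2 scale. FGF21 was not called in DESeq2, which gave it no adjusted p. They are shown, as genes that rose and hold the site, on the gene's strand with the element in capitals.
BCAT1, chr12:24949112-24949191 (- strand): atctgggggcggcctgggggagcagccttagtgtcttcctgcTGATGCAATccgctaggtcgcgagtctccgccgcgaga
FGF21, chr19:48755434-48755513 (+ strand): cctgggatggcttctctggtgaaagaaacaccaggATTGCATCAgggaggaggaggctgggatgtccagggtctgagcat
KLHDC7B, chr22:50545709-50545788 (+ strand): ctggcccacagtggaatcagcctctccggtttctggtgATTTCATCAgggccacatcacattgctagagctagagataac
Of the 13 ATF4 pathway regulators with a promoter in the table, 1 held these letters, and a match is a description of the letters and not evidence of binding.

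Part of the genes for protein folding fell. In the endoplasmic reticulum list, 12 of 24 genes were called lower and 2 higher, against 4.78% and 6.09% of all genes, with a median of -0.49. HSPA5, the master chaperone BiP, measured 932, 940.1 and 894 CPM in FBS and 466, 406 and 416 CPM in CSS, and the log2 fold change was -1.10 ± 0.05 (SE, edgeR adjusted p = 3.05e-25). HSP90B1, CALR and PDIA4, other chaperones and a disulfide isomerase, fell by 2.12-fold, 2.36-fold and 2.79-fold. SDF2L1 and MANF fell by 3.21-fold and 2.42-fold. The genes that rose were stress sensors of the same organelle. ATF6 rose from 102, 108 and 103 CPM to 218, 212 and 213 CPM, and ERN1, which encodes IRE1, from 25, 23.4 and 24 CPM to 89.1, 84.2 and 76.9 CPM.

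In the cytosol, 8 of 20 heat shock proteins were called lower and none higher, against 4.78% called lower in all genes, with a median of -0.52. HSPA8, the constitutive HSP70, measured 1658, 1744 and 1639 CPM in FBS and 682, 602 and 628 CPM in CSS. Every CSS library lay far under every FBS library, with a log2 fold change of -1.40 ± 0.04 (SE, edgeR adjusted p = 4.48e-34). Fractional counts occurred in 83.3% of its 6 values, so part of its reads was shared with other genes. The inducible HSPA1A and HSPA1B, which are near copies, had log2 fold changes of -1.74 and -1.43, so their separate values are uncertain. FKBP4, a co-chaperone of steroid receptors, measured 609, 605 and 610.0 CPM in FBS and 270.3, 266 and 290.2 CPM in CSS. HSP90AA1 and HSP90AB1, the abundant HSP90 forms, did not pass. Of 8 subunits of the cytosolic chaperonin, which folds actin and tubulin, 1 was called, against 10.9% of all genes. This was CCT3, which fell by 1.61-fold, and the list median was -0.25.

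The promoters were also searched on both strands for the elements of the stress factors known to act on chaperone genes. The endoplasmic reticulum stress element, CCAAT and CCACG separated by 9 bases and thus always holding a CCAAT box, was found in 15 of 12715 promoters (0.118%), 7 of 682 called lower, none of 820 called higher, and 6 of 22 in the folding list. This element was added after the expression values were seen. HSPA5, HSP90B1 and CALR, which fell, carry it in capitals. The heat shock element, alternating GAA and TTC units spaced by 2 bases, occurred in 0.267% of promoters, 0.293% of those of genes called lower (2 of 682), none of 820 called higher and 2 of 17 in the heat shock list, and HSPA8 has 2 matches, also in capitals.
HSPA5, chr9:125241364-125241453 (- strand): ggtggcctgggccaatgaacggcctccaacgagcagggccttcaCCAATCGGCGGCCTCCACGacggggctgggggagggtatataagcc
HSP90B1, chr12:103930205-103930349 (+ strand): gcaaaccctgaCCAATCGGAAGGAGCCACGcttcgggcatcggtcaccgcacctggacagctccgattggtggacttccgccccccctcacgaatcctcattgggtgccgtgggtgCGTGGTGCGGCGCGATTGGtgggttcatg
CALR, chr19:12938369-12938428 (+ strand): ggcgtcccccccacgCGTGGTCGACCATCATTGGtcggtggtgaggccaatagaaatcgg
HSPA8, chr11:123062167-123062376 (- strand): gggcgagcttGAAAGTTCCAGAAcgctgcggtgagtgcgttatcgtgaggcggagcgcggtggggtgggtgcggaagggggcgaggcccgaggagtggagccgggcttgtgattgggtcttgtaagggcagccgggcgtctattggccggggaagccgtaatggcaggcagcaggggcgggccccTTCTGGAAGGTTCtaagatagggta
The CCAAT box, which is CCAAT or ATTGG on the gene's strand, was found in 42.8% of genes called lower, 32.0% of genes called higher and 35.0% of all tested genes. In cholesterol synthesis it was found in 12 of 15 genes with a promoter, shown here for HMGCS1. It was as frequent among mitosis genes, 16 of 19, of which list 1 of 25 was called.
HMGCS1, chr5:43313493-43313582 (- strand): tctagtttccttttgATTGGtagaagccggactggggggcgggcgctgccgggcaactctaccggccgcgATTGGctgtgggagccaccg
The sterol element TCACNCCAC was found in none of these 15 genes and in 0.842% of all promoters within 250 bases of the start, and these counts say nothing of sites elsewhere.

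**Figure D2:**
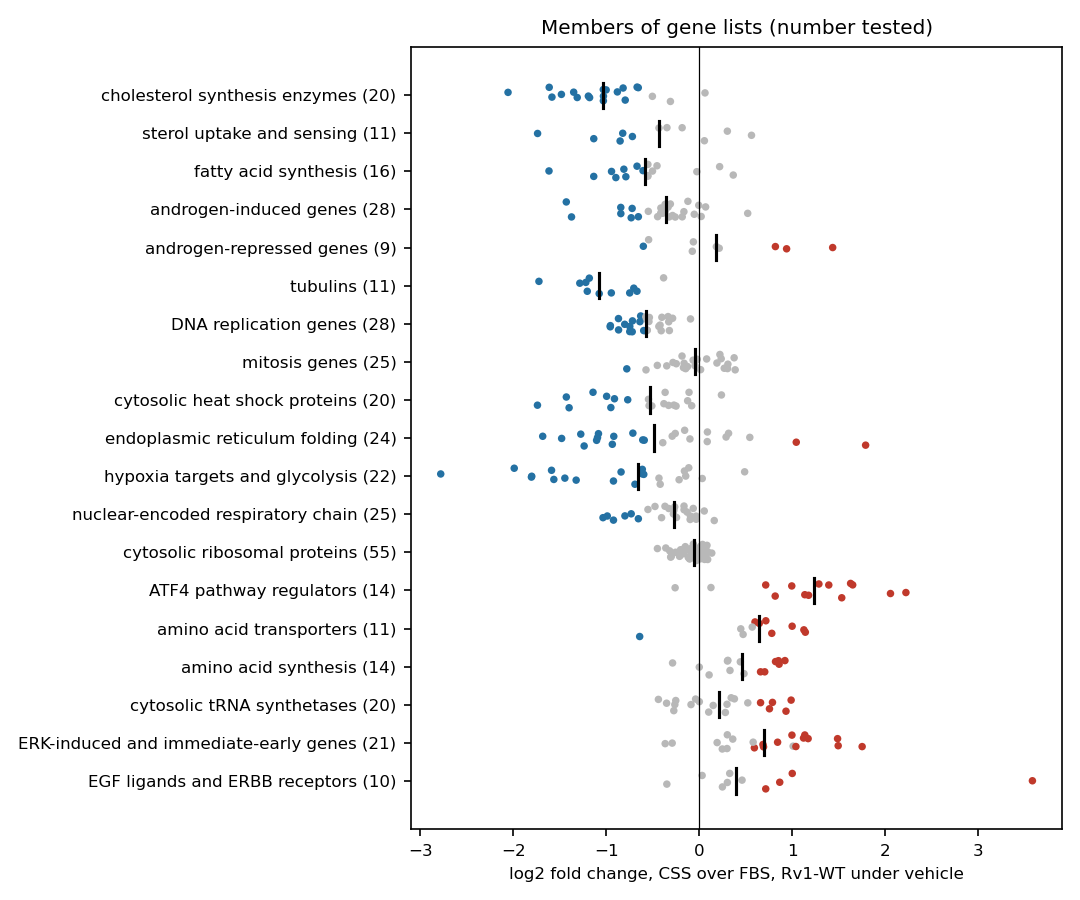
Each point is one tested gene of a list, placed by its log2 fold change of CSS over FBS in Rv1-WT under vehicle; red points were called higher, blue points called lower and grey points not called, and the black bar is the list median. The ATF4 list sits to the right with a median of 1.23, and cholesterol synthesis and tubulins sit to the left with medians of -1.03 and -1.08.

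Tubulins fell as a family. Of 11 genes for the subunits of microtubules, 10 were called lower, against 4.78% of all genes, and none higher. The median log2 fold change was -1.08. TUBB, a main beta-tubulin, measured 1382, 1381 and 1336 CPM in FBS and 559, 584 and 618 CPM in CSS (log2 fold change -1.22 ± 0.04 SE, edgeR adjusted p = 5.77e-34). TUBA1B, a main alpha-tubulin, measured 2092, 2211 and 2139 CPM in FBS and 866, 947 and 985 CPM in CSS. TUBB3, the beta-tubulin typical of neurons, had the largest fall of 3.30-fold, and TUBA1C did not pass. Reads of these closely related genes can be shared, and fractional counts were most frequent for TUBA1B, TUBB2B, TUBB3 and TUBG1.

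DNA replication genes fell, and 1 mitosis gene did. Of 28 replication genes, 12 were called lower, against 4.78% of all genes, and none higher. All 28 had a negative fold change, with a median of -0.57. CCNE2, cyclin E2, measured 49.4, 55.4 and 54.5 CPM in FBS and 28.1, 24.6 and 29 CPM in CSS. PCNA, the polymerase clamp, fell from 425, 429 and 438 CPM to 229, 238 and 241 CPM, and GINS1 and RRM2, for the replicative helicase and for making deoxynucleotides, fell by 1.94-fold and 1.65-fold. TK1, E2F1 and MCM6 were not called under library-size scaling, with log2 fold changes of -0.54, -0.58 and -0.57. TK1 also lost its call without FBS replicate 3 or CSS replicate 1 (-0.56 in both), and E2F1 without CSS replicate 2 (-0.57). Of 25 mitosis genes, 1 was called, MAD2L1, which fell from 158, 155 and 159 CPM to 87.8, 94.4 and 93.1 CPM. The list median was -0.05 under TMM and 0.01 under library-size scaling, so its sign depended on the scaling. MKI67, the proliferation antigen Ki-67, measured 312, 358 and 322 CPM in FBS and 391, 425 and 341 CPM in CSS, ranges that overlapped. CDKN1B, the inhibitor p27, rose from 165, 156 and 163 CPM to 260.3, 265 and 274 CPM. In its list of cell cycle brakes, D cyclins and p53 targets, 2 of 15 genes were called, both higher. The list median was 0.02, with 8 positive and 7 negative fold changes. CDKN2C, another inhibitor in that list, had a log2 fold change of -0.57 and missed the fold limit.

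Hypoxia and glycolysis genes were lower in CSS, 14 of 22 called, against 4.78% of all genes, with none higher and a median of -0.65. LDHA, which makes lactate, measured 1128, 1159 and 1079 CPM in FBS and 377, 372 and 390.3 CPM in CSS, with a log2 fold change of -1.56 ± 0.07 (SE, edgeR adjusted p = 6.61e-21). PFKFB3 and PFKFB4, which set the rate of glycolysis, fell by 3.48-fold and 3.97-fold. BNIP3, a mitophagy receptor, fell from 119, 118 and 115 CPM to 41.5, 43.9 and 44 CPM. VEGFA, the angiogenic factor, had a positive log2 fold change of 0.49 that missed the fold limit. Nuclear-encoded respiratory chain genes had 6 of 25 called lower, against 4.78% of all genes, and none higher, with a median of -0.27. NDUFB8 and COX7A2, subunits of complexes I and IV, had log2 fold changes of -1.03 and -0.99.

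Growth factor and ERK-induced genes rose in part. Of 10 EGF-family ligands and receptors, 4 were called higher, against 6.09% of all genes, and none lower. Besides AREG these were HBEGF and BTC, ligands, and ERBB4, a receptor. HBEGF rose from 2.23, 3.08 and 2.60 CPM to 5.78, 4.21 and 5.65 CPM, BTC and ERBB4 had log2 fold changes of 0.86 and 0.71, and EGFR itself missed the fold limit at 0.33. Of 21 ERK-induced and immediate-early genes, 12 rose, against 6.09% of all genes, and none fell, with a median of 0.69. EGR1, an immediate-early transcription factor, measured 12.1, 10.9 and 12.5 CPM in FBS and 36.4, 30.9 and 32.8 CPM in CSS. DUSP6 and SPRY4, feedback inhibitors of ERK signaling, rose by 2.25-fold and 1.79-fold, and EGR3 by 3.36-fold. SPRED2 lost its call in 3 of 6 fits that left out a library, each with a log2 fold change of 0.58.

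Smaller lists held few calls. In the FOXO and insulin list, 3 of 12 genes rose, against 6.09% of all genes, and none fell. TXNIP, which responds to glucose, rose from 419, 396 and 399 CPM to 1160.3, 1091 and 1072 CPM, and IRS2, an insulin receptor substrate, from 84, 82.6 and 93 CPM to 215, 199 and 203 CPM. IRS1 rose by 1.75-fold. In a separate list of 10 PPAR and lipid use genes, PDK4, which limits entry of pyruvate into mitochondria, rose by 3.14-fold and ANGPTL4, a secreted lipase inhibitor, fell by 2.77-fold, the only calls. CCN2, a connective tissue growth factor regulated by YAP, rose by 3.18-fold, and AJUBA, the other of 2 genes called among 9 in that list, by 1.62-fold. In the Wnt list, 1 of 11 genes rose and 3 fell, against 6.09% and 4.78% of all genes. WNT7B fell from 4.59, 3.21 and 3.76 CPM to 1.45, 1.49 and 1.04 CPM, LGR5 and TCF7 by 2.32-fold and 1.98-fold, and DKK1, an inhibitor of the pathway, rose by 2.26-fold.

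Several lists had few calls or none. None of 55 cytosolic ribosomal protein genes was called by edgeR, 19 had an unadjusted p under 0.05, and DESeq2 and limma-voom called 0 and 0. The list had a median of -0.06 under TMM and 0.00 under library-size scaling. Ribosome biogenesis had 1 higher and 1 lower call among 24, RRP12 at 0.69 and RRP9 at -0.88 on the log2 scale. Of 20 interferon-stimulated genes, 2 fell (OAS3 and HERC5), against 4.78% of all genes. HERC5 lost its call without FBS replicate 2 (log2 fold change -0.79). In the Mediator kinase module, MED12 rose from 57.3, 51.3 and 50.3 CPM to 85.7, 87.6 and 77.9 CPM. CDK8 measured 26.6, 27.3 and 26.4 CPM in FBS and 26.6, 27.2 and 25.4 CPM in CSS. CDK19 measured 149, 148 and 150.1 CPM in FBS and 201, 205 and 200.2 CPM in CSS. The CDK8 ranges overlapped, and the CDK19 change of 0.44 ± 0.04 (SE, edgeR adjusted p = 8.02e-13) missed the fold limit. MYC had -0.34 ± 0.05 (SE, edgeR adjusted p = 4.93e-08) and likewise missed it.

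The same comparison of CSS with FBS was also available for Rv1-Luc under vehicle and for Rv1-WT under SNX631, in libraries shared with neither medium group above. Rv1-Luc had 298 calls, 1.49% of genes tested, and 94 of them were parental calls of the same direction and 15 were parental calls of the opposite direction. That is 31.5% of the Rv1-Luc calls and 4.32% of the parental ones. The difference in the CSS effect between the lines was tested as an interaction, and 1731 genes passed (8.65%), 923 with a more positive and 808 with a more negative effect in Rv1-Luc (695 and 1046 under library-size scaling). Of these, 1221 were among the 2174 parental calls. Cholesterol synthesis was one such list, where all 17 genes that fell in Rv1-WT had a called difference, and the list median in Rv1-Luc was 0.16. HMGCS1 measured 579, 1099 and 977 CPM in FBS and 1213, 1018 and 1055 CPM in CSS in Rv1-Luc. The FBS and CSS values overlapped there, and the difference between the lines was 2.36 ± 0.19 (SE, log2). The difference passed for 8 of 10 tubulins that fell, 9 of 12 ATF4 regulators that rose and all 8 heat shock proteins that fell. It passed for 56.2% of all parental calls. The difference contains the parental effect with a minus sign. Picking genes for a parental call, in any of these lists, therefore tilts their differences towards the opposite sign. The size of this tilt was not measured. The difference between SNX631 and vehicle, given below, contains the same term and passed for 38 of the 2174 parental calls. Rv1-Luc had lower levels of the ATF4 regulators already in FBS, with a list median of -0.42 relative to Rv1-WT in FBS on a log2 scale. The median of all genes was -0.02. The shift was not particular to this list. Amino acid synthesis had -0.57 and androgen-repressed genes -0.83, while tubulins had 0.23 and cholesterol synthesis 0.06. DDIT3 measured 50.1, 60.8 and 60.6 CPM in FBS and 62.1, 62.9 and 62.4 CPM in CSS in Rv1-Luc.

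Some androgen-induced genes fell in both lines. The list median was -0.43 in Rv1-Luc with 8 of 28 called lower, beside -0.36 and 7 in Rv1-WT. Over all 20009 genes tested, 162 were called lower in Rv1-Luc and 956 in Rv1-WT. FKBP5, SLC45A3, PMEPA1 and NDRG1 were called in both. FKBP5 measured 345, 305 and 316 CPM in FBS and 185, 171 and 176 CPM in CSS in Rv1-Luc. The difference in its CSS effect between the lines was -0.02 ± 0.06 (SE, log2), with an edgeR adjusted p of 0.876, and that p does not show the effects to be equal. For 1 of the 7 parental calls the difference was called, NDRG1. KLK3 and KLK2 were called lower in Rv1-Luc. KLK3 measured 10.5, 7.13 and 8.85 CPM in FBS and 4.33, 5.10 and 4.62 CPM in CSS there, and the difference between the lines was -0.60 ± 0.19 (SE, log2), with an edgeR adjusted p of 0.0114. BNIP3, PFKFB3, PFKFB4, EGLN3 and PPFIA4 were the hypoxia genes called lower in both lines, and DUSP6, EGR1, ETV4 and ETV5 were the ERK-induced genes called higher in both.

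**Figure D3:**
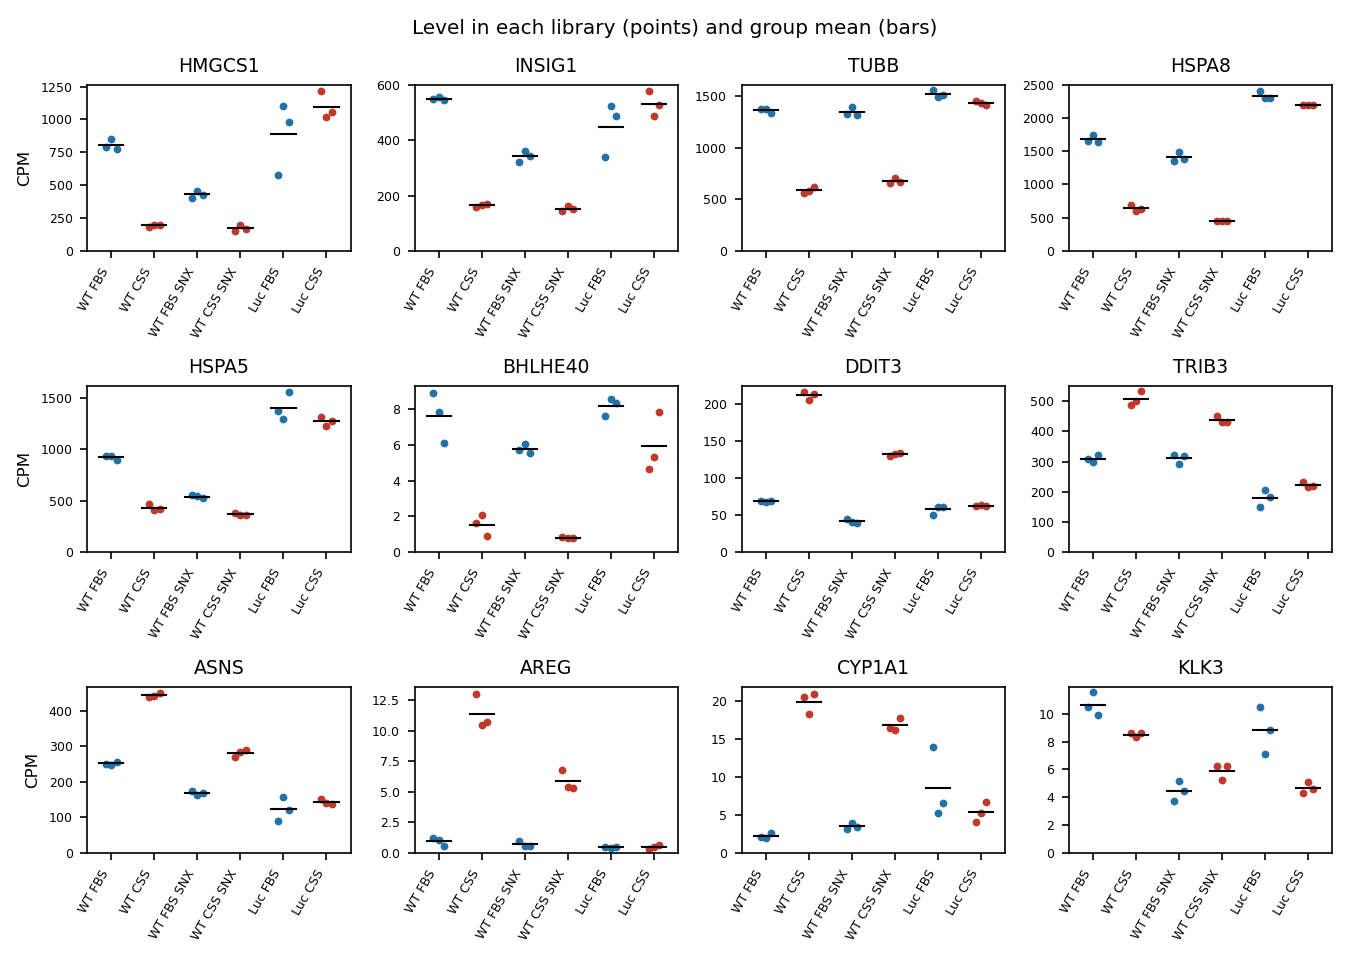
Each point is the level of one library in CPM and each bar the mean of 3 libraries, for 12 genes in 6 groups: Rv1-WT and Rv1-Luc under vehicle and Rv1-WT under SNX631 (SNX), in FBS (blue) or CSS (red). HMGCS1, INSIG1, TUBB and HSPA8 are lower in CSS in Rv1-WT with and without SNX631, and none of these genes was called in Rv1-Luc.

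The CSS effect in Rv1-WT was also measured with SNX631 present. It had 1567 calls (7.83%), of which 1097 were vehicle calls of the same direction and 0 of the opposite direction, with the shared ones making up 50.5% of the vehicle calls and 70.0% of the SNX631 calls. The interaction passed for 59 genes (0.295%), 49 with a more positive and 10 with a more negative effect under SNX631 (35 and 13 under library-size scaling). Endoplasmic reticulum chaperones were among them, with 5 of 24 in the folding list. HSP90B1 measured 1384, 1441 and 1360.1 CPM in FBS and 1068, 1173 and 1134 CPM in CSS under SNX631. The fall was smaller there than under vehicle, by 0.77 ± 0.06 (SE, log2, edgeR adjusted p = 8.34e-15). Its mean in FBS was 1395 ± 41.6 CPM (SD, n = 3) under SNX631 and 2213 ± 39.4 CPM (SD, n = 3) under vehicle. PDIA4, CALR, CRELD2 and DERL3 had differences of 0.83, 0.65, 0.65 and 0.74. LSS also passed, at 0.70. The androgen-induced list had 2 genes called lower under SNX631, SLC45A3 and NDRG1, with a median of -0.01. Over all 20009 genes tested, 594 were called lower there. A difference that did not pass does not show equal effects.

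**Figure D4:**
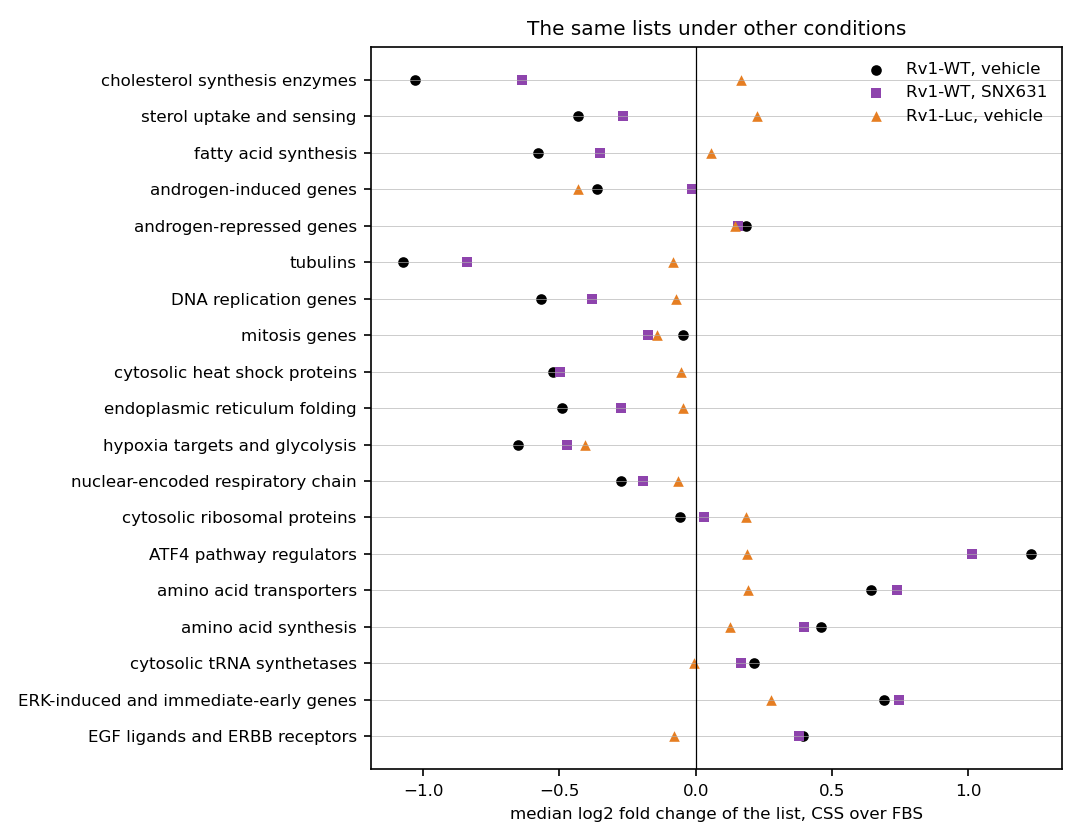
Median log2 fold change of CSS over FBS for each gene list, for Rv1-WT under vehicle (circles), Rv1-WT under SNX631 (squares) and Rv1-Luc under vehicle (triangles). For cholesterol synthesis the medians are -1.03, -0.64 and 0.16, and for androgen-induced genes -0.36, -0.01 and -0.43.

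Fold changes were related to exon length. Protein-coding genes were divided into 5 groups of nearly equal size by the summed length of their exons. The median log2 fold change rose from -0.11 in the shortest genes to 0.11 in the longest. In the shortest group 123 genes were called higher and 246 lower, and in the longest 281 higher and 88 lower. In Rv1-Luc the medians ran from -0.02 to 0.02, and in Rv1-WT under SNX631 from -0.08 to 0.06. The part of length in the counts of any gene list was not tested.

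**Figure D5:**
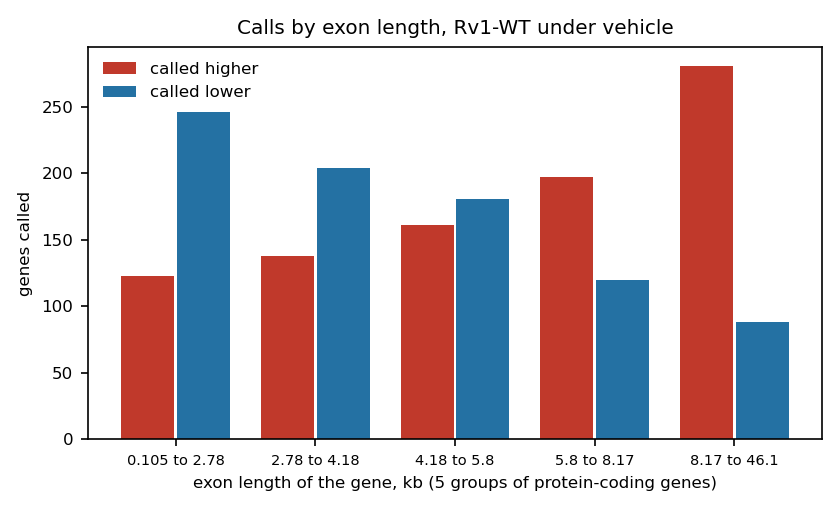
Numbers of protein-coding genes called higher (red) and lower (blue) in CSS against FBS in Rv1-WT under vehicle, in 5 groups by exon length in kb; each group holds 2943 or 2944 genes. Lower calls outnumber higher ones in the shortest group (246 against 123), and the reverse holds in the longest (88 against 281).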

How the data were processed

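RNA was prepared from cultured cells and sequenced as strand-specific libraries. The authors made and deposited a table of estimated counts per gene without normalization, per the file headers and the values (an estimated count can be a fraction of a read). Of its nonzero values 81.6% were whole numbers, the rest being shares of reads. The submitters' processing notes list FastQC, cutadapt 2.8, STAR 2.7.2b, featureCounts and Subread 2.0.3, with the builds GRCh38.p13 and GRCm39, and no order. Counts were rounded and 2 transgenes left out. All 48 libraries in 16 groups were fitted in edgeR 4.0.16 (filterByExpr with a minimum count of 10, TMM scaling, quasi-likelihood test with 32 residual degrees of freedom), and contrasts were taken from that fit. SE is the log2 fold change divided by the square root of F. A call needed an adjusted p under 0.01 and a change over 1.5-fold. CPM values are TMM-scaled. Group and replicate came from the labels.

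Gene lists (48) and the comparisons were chosen with earlier results of these data known. Genes named are the 12 highest and 12 lowest called log2 fold changes with a symbol, a mean of at least 1 CPM and groups that do not overlap, the 6 lowest p-values, and in each list the first 3 genes and called members. BCAT1 and members that were not called were named after their values were seen. Mitochondrial-genome transcripts were not analysed here, and a few genes that meet the rule are not reported here. Length used GENCODE v29, promoters RefSeq GRCh38.p14. The same fit was tested on simulated data. Replicate numbers are not stated to pair the samples, and no pairing was used. Deviations of equally numbered libraries had correlations between -0.00807 and 0.00789 across genes, which cannot exclude that such cultures were handled together. DESeq2 1.42.0 and limma 3.58.1 gave alternatives.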

Additional observations from a re-analysis of the deposited data

Results flagged for a closer look

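For 1731 genes the response to CSS was not the same size in Rv1-Luc as in Rv1-WT, and for 59 it was not the same size under SNX631 as under vehicle, each by an interaction test in edgeR. Both differences contain the parental vehicle effect with a minus sign, so picking a gene for a large parental effect tilts its difference towards the opposite sign. The size of this tilt was not measured. Of the 30 genes named for the size or the p-value of the parental change, 24 had a called difference between the lines and 2 between SNX631 and vehicle. The values below are log2 differences in the CSS effect.

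Among genes that rose in Rv1-WT, the effect in Rv1-Luc was lower for KLHDC7B by a log2 difference of -4.92, CYP1A1 by -3.89 and AREG by -3.70. For the interferon-inducible APOL6 the difference was -2.88, for LAMP3 -3.06, for LINC00365 -2.44 and for FIBIN -2.35. The antisense gene DLGAP1-AS1 had -2.79, with the strand of counting unknown. INHBA had -1.40, and the stress regulators DDIT3 and GTPBP2 had -1.50 and -1.47. TOX3 had -1.21.

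Among genes that fell in Rv1-WT, the effect in Rv1-Luc was higher for CCKBR by 2.39, HMGCS1 by 2.36, TMEM169 by 2.32 and PLIN4, a lipid droplet protein, by 2.04. CXCR4 had 1.96 and BHLHE40 1.89. The chaperone genes HSPA8 and FKBP4 had 1.31 and 1.04, TUBB 1.13 and PFKFB4 1.32. COLCA1 was the gene of this group with a larger fall in Rv1-Luc, with -0.59 between the lines, while its difference between SNX631 and vehicle was 1.02.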

How the results depend on the processing

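The calls in Rv1-WT, the difference between lines and the difference between SNX631 and vehicle numbered 2174, 1731 and 59. With an adjusted p under 0.05 and no fold limit they were 8981, 6830 and 627. With a test against a 1.5-fold change they were 630, 317 and 1. Both alternatives differ by construction in the size of change they ask for. Other settings stayed within 1.5 times of these counts: DESeq2 gave 2041, 1662 and 73, limma-voom 2145, 1702 and 55, and counts thinned to the smallest library 2113, 1636 and 57. Leaving out 1 library gave 1937 to 2187, 1510 to 1854 and 40 to 68. Pairing by replicate number is not stated, and a fit with the replicate number as a block gave 2178, 1734 and 60. Library-size scaling moved the median log2 fold change of all genes from 0.01 to 0.07 and the share of higher calls from 56.0% to 66.7%. It also turned the sign of the medians for LXR targets, mitosis genes, ribosomal proteins, interferon-stimulated genes and lysosome genes. No called gene named here changed direction in any setting. Genes near 1 CPM rest on few counts, and 3 libraries per group limit the precision. Culture history and seeding density were not varied within a medium, and serum lots are not given in the sources used here. None of these can be told apart from androgen depletion.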

Other observations

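Lists outside the pathways above held a few called genes each. The background for their counts is again 6.09% called higher and 4.78% called lower over all genes tested. In the lysosome and autophagy list, GABARAPL1 and MAP1LC3B, which encode ATG8-family proteins of the autophagosome, rose from 10.3, 11 and 10.8 CPM to 26.3, 24.5 and 22.9 CPM and from 123, 127 and 121 CPM to 239, 227 and 216 CPM. The sialidase gene NEU1 fell by 1.61-fold, and the other 8 of 11 genes were not called. Of 14 NRF2 targets, 2 were called lower. One of them, HMOX1, heme oxygenase, fell from 4.41, 4.08 and 5.45 CPM to 2.56, 2.60 and 1.97 CPM. No member rose.

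In the MYC network, MYCL was the gene called among 12, rising from 3.47, 2.74 and 4.48 CPM to 8.78, 7.19 and 9.12 CPM. In the SMAD list, SKIL, a repressor of SMAD signaling, rose by 1.79-fold and was the gene called among 10. Among androgen synthesis enzymes, SRD5A3, of the steroid reductase family, fell from 37, 39.6 and 42.3 CPM to 23.4, 24.7 and 27.3 CPM. CLDN4, a tight junction claudin, fell from 184, 171 and 186 CPM to 86.2, 92 and 97.5 CPM, and CDH1, E-cadherin, had a log2 fold change of 0.32 that did not pass.

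Of 13 neuroendocrine genes, POU3F2, a neural transcription factor, fell from 16.9, 16.3 and 18.9 CPM to 9.0, 9.98 and 8.96 CPM, and ENO2, neuron-specific enolase and also a member of the glycolysis list, by 1.61-fold. SYP and CHGA, synaptophysin and chromogranin A, had log2 fold changes of -0.36 and 0.75 and did not pass. CHGA passed in limma-voom, with 0.76.

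SCG2, a secretogranin of the neuroendocrine list, was called higher at 0.65 and lost the call without any library but CSS replicate 3, with log2 fold changes from 0.56 to 0.71. It was also not called in DESeq2 (0.66), in limma-voom (0.63), with the Rv1-WT libraries alone (0.65) or with the replicate number as a block (0.65). AKR1C2, an androgen-metabolizing reductase, was called higher at 0.64 and lost the call without FBS replicate 1, CSS replicate 2 or CSS replicate 3, with 0.51 to 0.58.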
